A study of Mus musculus with 4 samples.

Results

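Transcripts of 8 transcription factor genes of the midbrain-hindbrain border and the hindbrain were followed in whole WT and *Dyrk2*-/- mouse embryos. The genes were *En1*, *En2*, *Gbx1*, *Gbx2*, *Egr2*, *Phox2a*, *Barhl1* and *Barhl2*, taken by their names in the array annotation out of 37325 genes with a probe, and 9 probes carry these names. RNA of whole C57BL/6 embryos was measured on 4 one-colour Agilent mouse arrays, 1 for each of WT at E8.5, DYRK2 knockout at E8.5, WT at E10.5 and DYRK2 knockout at E10.5, where E gives the embryonic day. The knockout was made with the CRISPR/Cas9 nickase system, which gave lines with small deletions in *Dyrk2*, and neither the line nor the number of embryos behind an RNA is given in the sources used here. The arrays shared 1 slide, so that position on the slide and group cannot be told apart, and no group had a replicate.

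The border between midbrain and hindbrain is an organizing center, the isthmus, that patterns the tissue on both of its sides through secreted Fgf8 and Wnt1. The engrailed factors En1 and En2 are expressed across it, and Gbx2 is needed for the anterior hindbrain and sets the border against Otx2, which is expressed anterior to it. Behind the border the hindbrain is divided into segments, the rhombomeres, of which the third and the fifth express Egr2 (Krox20). Phox2a acts in cranial motor neurons and in noradrenergic and autonomic neurons, and Barhl1 and Barhl2 mark neurons derived from the rhombic lip and other neurons of the brain and spinal cord.

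Levels are given as log2 of the processed intensity minus the 75th percentile of the array, so that 0 is the 75th percentile, and they are comparable between arrays for 1 probe but not between probes. The error beside a level or log2 ratio is the SD that the scanner software estimated for the spots. It covers the spot and not the difference between embryos or arrays. A probe was read as measured on an array where the software marked it as well above background, and a fold between a measured and a dim value is a bound. A gene was called at a difference of 1.5-fold or more, without a test, since there was 1 array per group. In whole embryos, fewer cells of a kind and less RNA per cell cannot be told apart.

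The targeted gene was examined before the others. The level at the brightest *Dyrk2* probe was 0.06 on the WT and 0.76 on the knockout array at E8.5, against −0.31 and 0.34 at E10.5. At the other *Dyrk2* probe it was −0.23 and −0.20 at E8.5, against −0.28 and −0.00 at E10.5. *Dyrk2* transcript was thus not lower on the knockout arrays but past 1.5-fold higher at the brightest probe at both stages (1.62-fold and 1.57-fold) and under 1.5-fold at the other, and since small deletions need not lower it, it did not check the labels. The arrays are therefore named as the arrays labelled *Dyrk2*-/-, and every direction between genotypes rests on the labels. The paper reports loss of Dyrk2 protein in tissues of later *Dyrk2*-/- embryos and quantitative PCR of genes taken from these arrays. Those measures were not set against the arrays here. The E10.5 array labelled *Dyrk2*-/- stood apart in genes of the sex chromosomes. *Xist*, which is transcribed from the inactive X chromosome, was well above background on that array alone, at −0.37. In turn, 4 genes of the Y chromosome, *Uty*, *Kdm5d*, *Eif2s3y* and *Ddx3y*, passed the background test on each array but that one. This difference and the genotype cannot be told apart at E10.5. Nor can this difference and the stage be told apart on the arrays labelled *Dyrk2*-/-.

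The groups also differed in markers of other tissues. Of 12 erythroid genes, which serve the red blood cell, 10 were well above background on the WT E8.5 array and 12 on each of the others, with *Klf1* among those below on the former. Their summed level, in multiples of the 75th percentile, was 18.8 on the WT and 386 on the array labelled *Dyrk2*-/- at E8.5, against 1379 and 1606 at E10.5. The brightest erythroid probe was that of *Hbb-bh1* at E8.5 and of *Hbb-y* at E10.5 in both genotypes, which does not rank the transcripts. Of 15 genes expressed along the whole neural tube, 14 were well above background on both E8.5 arrays and 15 on both E10.5 arrays, and the exception was *Dcx*, a marker of young neurons. Their summed level was 67.1 on the WT and 60.1 on the array labelled *Dyrk2*-/- at E8.5, against 207 and 146 at E10.5. The brightest of their probes was that of *Sox3* on both E8.5 arrays, of *Stmn2* on the WT E10.5 array and of *Nes* on the E10.5 array labelled *Dyrk2*-/-, again with no ranking of transcripts. The part of these differences in the results on the hindbrain factors was not tested.

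Of the 8 genes, 6 were well above background on all 4 arrays at their brightest probe, *Barhl2* was so at E10.5 only, and *En1* was on none. The *En1* probe gave −4.59 on the WT and −5.86 on the array labelled *Dyrk2*-/- at E8.5, against −6.82 and −6.20 at E10.5. These values lie near or below the lowest levels counted as above background, which ran from −4.82 to −4.53 over the 4 arrays, and no fold was computed from them. For *En1*, a gene of the border, the limb ectoderm and the dermomyotome, the arrays thus gave no level. Genes of the border well above background at their brightest probes on every array included *En2*, *Gbx2*, *Fgf8*, *Wnt1*, *Pax2*, *Pax5*, *Pax8*, *Lmx1b* and *Otx2*. Several of these are also expressed elsewhere in the embryo, so that in whole embryos their signal cannot be assigned to the border.

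**Figure D1:**
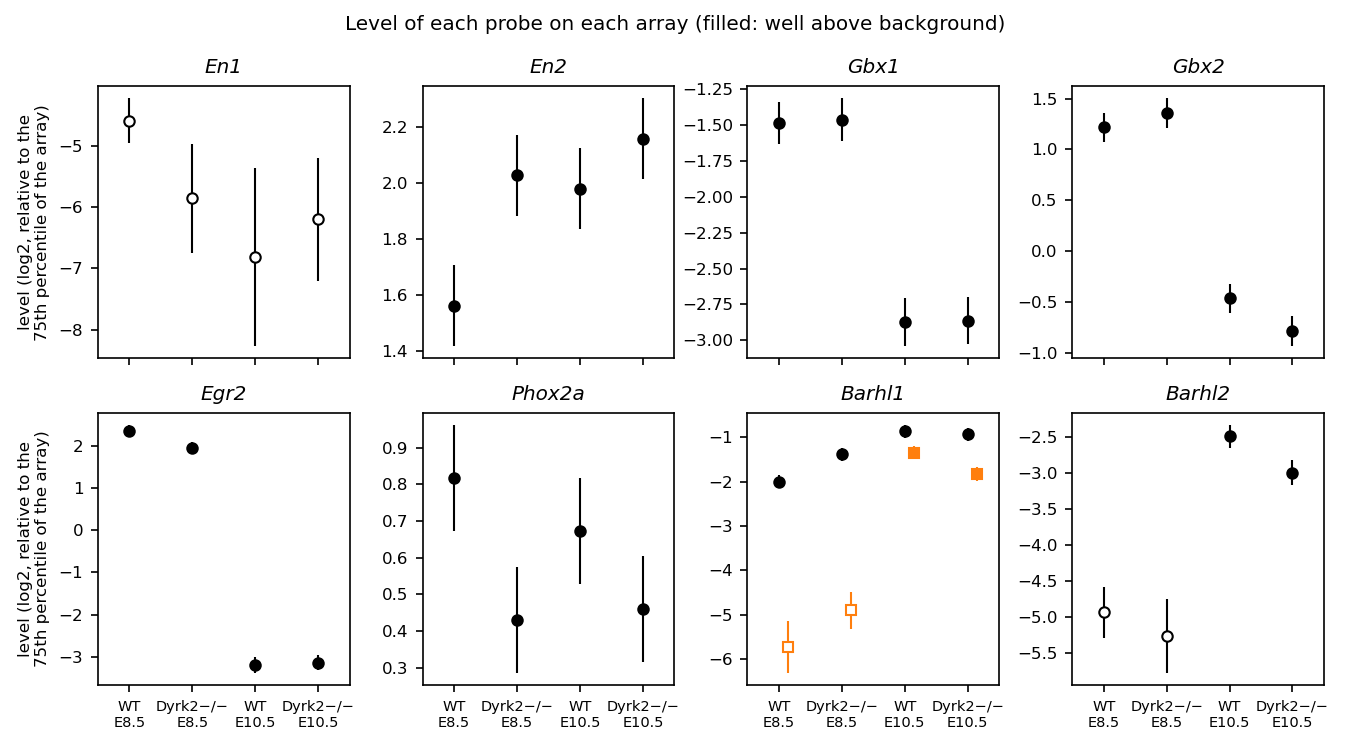
Levels of the 9 probes on the 4 arrays, as log2 relative to the 75th percentile of the array (vertical axes differ between panels). Points are single arrays, bars are the SD estimated by the scanner software, filled points are well above background, and orange squares are the other *Barhl1* probe. *Egr2*, *Gbx1* and *Gbx2* lie lower at E10.5 than at E8.5 in both genotypes, with *Egr2* at 2.35 and 1.95 against −3.20 and −3.14.

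The comparison of E10.5 with E8.5 asks how these factors changed as the embryo passed from early patterning to neuronal differentiation. The rhombomere factor *Egr2* and both Gbx factors were lower at E10.5 in both genotypes, *Barhl2* was higher in both and *Barhl1* past 1.5-fold in WT alone at its brightest probe, and *En2* and *Phox2a* differed by less than 1.5-fold. Of 7 genes measured on at least 1 WT array, 2 were 1.5-fold or more higher at E10.5, where 17.3% of 21788 genes were, and 3 were lower, where 15.9% were. On the arrays labelled *Dyrk2*-/-, 1 of 7 was higher, where 14.9% of 21405 genes were, and 3 were lower, where 13.3% were. *Barhl2* entered these counts as higher only through the E10.5 arrays, where it was high, so its fold calls are no test. With a filter on both arrays, 1 gene was higher and 3 lower in WT, where 2915 and 2928 of 19426 genes were. On the arrays labelled *Dyrk2*-/- it was 0 and 3, where 2438 and 2411 of 19169 genes were. A limma model of the embryonic day with genotype as a block called 5 of these 7 genes at their brightest probes, at an adjusted p (Benjamini-Hochberg over all probes) under 0.05, 2 higher and 3 lower, where it called 35.3% of 32289 probes. This fit had 1 residual degree of freedom, which came from how far the genotype difference at E8.5 departed from that at E10.5. Its SE and p-values, here and for the genotype, rest on that departure and on a spread shared over all probes. They do not measure the difference between embryos of a group. Under the spike-in scaling the fit called *Egr2* and *Barhl2* only. *Barhl2* passed the filter of the fit (well above background on 2 arrays or more) only through the E10.5 arrays, where it was high. Its limma calls are therefore no test. With a filter on all 4 arrays the fit called 4 genes, 1 higher and 3 lower.

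*Egr2* is a zinc finger factor that directs the segmental identity of its rhombomeres and later the myelin program of Schwann cells. Its level was 2.35 on the WT and 1.95 on the array labelled *Dyrk2*-/- at E8.5, against −3.20 and −3.14 at E10.5. Both E8.5 arrays were thus high and both E10.5 arrays low, and the values of the stages did not overlap. The log2 difference between stages was −5.55 ± 0.23 in WT, a 46.9-fold lower level, and −5.09 ± 0.23 on the arrays labelled *Dyrk2*-/-, a 34.0-fold lower level. Counting *Egr2* itself, 7 of the 19426 genes well above background on both WT arrays had a log2 difference as low, and on the arrays labelled *Dyrk2*-/- it was 8 of 19169. Limma gave a log2 difference of −5.32 (SE 0.16, adjusted p = 2.77e-07), lower on both E10.5 arrays.

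*Gbx2*, the homeobox factor of the anterior hindbrain, had a level of 1.22 on the WT and 1.36 on the array labelled *Dyrk2*-/- at E8.5, against −0.46 and −0.78 at E10.5. It was 3.20-fold lower at E10.5 in WT (log2 difference −1.68 ± 0.20) and 4.41-fold lower on the arrays labelled *Dyrk2*-/- (−2.14 ± 0.20), and in the limma model it fell by 1.91 (SE 0.15, adjusted p = 2.77e-05). The related *Gbx1*, which acts in the hindbrain and the dorsal spinal cord, had a level of −1.48 on the WT and −1.46 on the array labelled *Dyrk2*-/- at E8.5, against −2.88 and −2.87 at E10.5. Its values were within the error of each other at each stage, and the stages did not overlap. *Gbx1* was 2.62-fold lower at E10.5 in WT (−1.39 ± 0.22) and 2.65-fold lower on the arrays labelled *Dyrk2*-/- (−1.40 ± 0.22), with a limma difference of −1.40 (SE 0.19, adjusted p = 0.000534).

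*Barhl1*, a homeobox gene of rhombic lip derivatives, had a level of −1.38 on the array labelled *Dyrk2*-/- at E8.5, 0.62 above the WT array, against −0.87 (WT) and −0.93 at E10.5. The WT E8.5 array was lowest, the E8.5 array labelled *Dyrk2*-/- came next, and both E10.5 arrays were highest and within the error of each other. The gene was 2.19-fold higher at E10.5 in WT (log2 difference 1.13 ± 0.21) but 1.37-fold on the arrays labelled *Dyrk2*-/- (0.45 ± 0.21), under the threshold there. It was past the threshold on those arrays under the spike-in scaling (1.09) and without scaling (0.76). The mean over probes was also past it (1.76), but took in the dim E8.5 value of the other probe and so decides nothing. The limma difference of the gene was 0.79 (SE 0.19, adjusted p = 0.0125). Without the intensity trend limma did not call it. The other *Barhl1* probe was not well above background at E8.5, with −5.73 on the WT and −4.91 on the array labelled *Dyrk2*-/-, and reached −1.35 and −1.83 at E10.5. At that probe the gene was at least 11.0-fold higher at E10.5 in WT and at least 6.48-fold higher on the arrays labelled *Dyrk2*-/-. Both probes were higher at E10.5, but the size of the difference depended on the probe.

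*Barhl2* was not well above background at E8.5, with −4.93 on the WT and −5.25 on the array labelled *Dyrk2*-/-, and reached −2.49 and −2.99 at E10.5. It was at least 5.03-fold higher at E10.5 in WT and at least 2.90-fold higher on the arrays labelled *Dyrk2*-/-. With the normexp correction the log2 differences were 0.81 and 0.41, and the latter was under the threshold. Limma gave a difference of 2.35 (SE 0.31, adjusted p = 0.000534), higher on both E10.5 arrays, but its E8.5 values were below background. *Barhl2* entered that fit only through the E10.5 arrays, where it was high, so the fit is no test of the difference. The *Barhl2* spot was located by the spot finder of the scanner software on the WT array at E8.5 and on the E10.5 array labelled *Dyrk2*-/-, and not on the others.

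*En2* and *Phox2a* did not pass the threshold between stages in either genotype with the 75th percentile scaling. *En2*, which continues in the midbrain and in the cerebellar primordium, had a level of 1.56 on the WT and 2.03 on the array labelled *Dyrk2*-/- at E8.5, against 1.98 and 2.16 at E10.5. In rising order came WT at E8.5, WT at E10.5, then the arrays labelled *Dyrk2*-/-, the earlier stage before the later, and among the last 3 the steps were smaller than the error. The limma difference between stages was 0.27 (SE 0.13, adjusted p = 0.136), but limma called *En2* higher at E10.5 with quantile normalization, without scaling and in the deposited table. *En2* also passed 1.5-fold without scaling in WT (log2 difference 0.60) and under the spike-in scaling on the arrays labelled *Dyrk2*-/- (0.77). *Phox2a* had a level of 0.82 on the WT and 0.43 on the array labelled *Dyrk2*-/- at E8.5, against 0.67 and 0.46 at E10.5, which places both WT arrays above both others. Its limma difference between stages was −0.06 (SE 0.13, adjusted p = 0.767). On the arrays labelled *Dyrk2*-/- *Phox2a* passed 1.5-fold between stages under the spike-in scaling (log2 difference 0.67). The same software located the *Phox2a* spot on both arrays labelled *Dyrk2*-/- and on neither WT array, and the part of this in the values was not tested.

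Genes that work with these factors were read beside them. Their counts between stages stand beside the shares over all genes given above, 17.3% higher and 15.9% lower in WT, 14.9% and 13.3% on the arrays labelled *Dyrk2*-/-, and beside 35.3% of probes called by limma. Their medians stand beside −0.08 in WT and −0.05 on the arrays labelled *Dyrk2*-/- over all genes. In every list, a gene below background on both arrays of a stage entered the limma fit only through the other stage, so its limma call between stages is no test. A gene below background on 1 of the arrays compared likewise entered a fold count only through the array where it was high. Its fold call is no test either. Of 18 isthmic organizer genes measured on the WT arrays, 2 were 1.5-fold or more higher at E10.5 and 9 lower, with a median log2 ratio of −0.65. On the arrays labelled *Dyrk2*-/-, 2 of 19 were higher and 11 lower, with a median of −0.76. *Fgf8*, the secreted signal of the isthmus, was 3.62-fold lower at E10.5 in WT (level 2.76 at E8.5, later 0.91) and its level on the arrays labelled *Dyrk2*-/- was 2.63 and 0.92. *Fgf17*, a related ligand, had log2 differences between stages of −1.79 in WT and −2.16 on the arrays labelled *Dyrk2*-/-, and *Wnt1* of −0.82 and −0.92. Of the Pax factors of the border, *Pax5* was 3.53-fold and *Pax8* 3.91-fold lower at E10.5 in WT, while *Pax2* had a log2 difference of −0.55 in WT and −1.25 on the arrays labelled *Dyrk2*-/-. *Lmx1b*, which maintains the isthmus, was higher at E10.5 in both genotypes (log2 differences 0.72 and 0.75, with 0.11 and −0.18 at another probe), and so was *Cnpy1*, at 7.23-fold on the arrays labelled *Dyrk2*-/-. *Otx2* differed by less than 1.5-fold at its brightest probe (−0.50 and −0.22), while both other probes had −0.63 in WT but −0.41 and 0.12 on the arrays labelled *Dyrk2*-/-. Between genotypes at E10.5 the last of these probes had a ratio of 0.85, past the threshold, and the brightest 0.05. In the limma model of the embryonic day, 13 of 18 brightest probes of the list were called lower and 2 higher.

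Of 24 rhombomere genes measured in WT, 5 were 1.5-fold or more higher at E10.5 and 6 lower, with a median log2 ratio of 0.15, and on the arrays labelled *Dyrk2*-/- 2 were higher and 7 lower, with a median of −0.27. *Fgf3*, a signal of the hindbrain segments, was 21.5-fold lower at E10.5 in WT and 28.9-fold lower on the arrays labelled *Dyrk2*-/-. The anterior Hox gene *Hoxb1*, active early in the presumptive hindbrain, had a log2 difference of −2.87 in WT and of −2.73 on the arrays labelled *Dyrk2*-/-. Smaller differences at the brightest probe were those of *Hoxa2* (0.48 in WT and 0.16 on the arrays labelled *Dyrk2*-/-), *Hoxb2* (−0.61 and −0.51) and *Epha4* (−0.16 and −0.13), of which *Hoxb2* in WT passed the threshold. Another *Hoxb2* probe was past it in both genotypes (−1.16 and −0.65). *Cyp26b1*, which breaks down retinoic acid, was higher at E10.5 in both genotypes (2.29 and 1.23), and so was *Hoxa4* (1.67 and 0.78). Limma called 6 of the 24 higher and 7 lower between stages.

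Genes of hindbrain neurons were taken in 3 lists. Several of them are also expressed elsewhere in the embryo, so that in whole embryos their signal cannot be assigned to the hindbrain. Of 18 motor neuron genes, 11 were 1.5-fold or more higher and 4 lower in WT, with a median log2 ratio of 0.75, and 9 and 4 were on the arrays labelled *Dyrk2*-/-, with a median of 0.47. *Phox2a* itself differed by 1.11-fold in WT and 1.02-fold on the arrays labelled *Dyrk2*-/-. *Lhx3* was 22.9-fold and 15.6-fold higher at its brightest probe but 1.79-fold and 1.21-fold at another, *Isl1* had log2 differences of 0.96 and 1.09 and *Isl2* of 2.68 and 2.53, and the vesicular acetylcholine transporter *Slc18a3* of 3.13 and 2.16. *Tbx20*, which is also a heart gene, was lower (−1.46 and −0.86). Of 10 measured noradrenergic and autonomic genes, 7 were higher and 1 lower in WT, and 7 and 0 on the arrays labelled *Dyrk2*-/-, with medians of 2.53 and 1.76. Among them, *Insm1* was 30.9-fold and 27.3-fold higher, the catecholamine enzyme *Th* had log2 differences of 3.14 and 2.08, and *Dbh* was above background at E10.5 only. Limma called 8 of 18 motor neuron genes higher and 4 lower, and 7 of 10 noradrenergic and autonomic genes higher and 2 lower.

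Of 16 genes of the rhombic lip and dorsal hindbrain, the tissue in which the Barhl factors act, 13 were 1.5-fold or more higher and 2 lower at E10.5 in WT, with a median log2 ratio of 1.64. On the arrays labelled *Dyrk2*-/-, 12 were higher and 1 lower, with a median of 1.36. *Atoh1*, which defines the rhombic lip and was not above background at E8.5, at E10.5 reached 0.10 in WT and −0.42 on the array labelled *Dyrk2*-/-. *Lhx9*, another gene below background at E8.5, reached −0.36 and −0.60, and *Lhx2* had log2 differences of 1.73 and 1.58 between stages. *Zic1* was 14.1-fold and 9.21-fold higher, *Nhlh1* 53.1-fold and 32.1-fold and *Neurog2* 9.30-fold and 4.26-fold. Probes of *Pou4f1* disagreed, since its brightest probe had differences of −0.87 in WT and 0.80 on the arrays labelled *Dyrk2*-/-, while another had 2.70 and 1.71. Limma called 13 of the 16 higher and 1 lower. Genes below background on both E8.5 arrays, among them *Atoh1*, *Lhx9* and *Gdf7*, entered that fit and the fold counts only through the E10.5 arrays. Their calls are therefore no test.

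The whole neural tube list moved in the same comparison, with 11 of 15 genes higher and 0 lower in each genotype and medians of 2.75 in WT and 2.42 on the arrays labelled *Dyrk2*-/-. *Elavl3* was 43.3-fold and 31.1-fold higher, *Nefm* 11.3-fold and 17.7-fold and *Fabp7* 13.0-fold and 14.3-fold. Erythroid genes moved too, with 11 of 12 higher in each genotype and medians of 5.64 and 2.36, led in WT by *Hbb-y* at 313-fold, with *Hba-a2* and *Slc4a1* each at a log2 difference of 7.23. Limma called 11 of 15 and 11 of 12 higher. Among 10 measured genes of other sites of *En1* and *Egr2* (limb ectoderm, dermomyotome and Schwann lineage), 2 were higher and 3 lower in WT and 2 and 4 on the arrays labelled *Dyrk2*-/-, with medians of −0.19 and −0.48. The ligand *Fgf4* was 8.71-fold and 11.6-fold lower and *Sp6* 3.32-fold and 2.47-fold. The neural crest factor *Foxd3* had differences of −1.01 and −1.18. In whole embryos these signals cannot be assigned to the sites of the list. Limma called 2 of the 10 higher and 5 lower. Over all genes, 17.3% were higher and 15.9% lower in WT, and 14.9% and 13.3% on the arrays labelled *Dyrk2*-/-, while limma called 35.3% of probes.

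The comparison of *Dyrk2*-/- with WT asks whether the factors differed between genotypes at a stage. At E8.5, 1 of the 6 measured genes, *Barhl1*, was 1.5-fold or more different, where 9.26% of 20848 genes were. It was 1.54-fold higher on the array labelled *Dyrk2*-/- (log2 ratio 0.62 ± 0.21), and the other *Barhl1* probe was below background on both arrays. This value lay near the threshold and under it with quantile normalization, in the deposited table, under the normexp correction, without scaling and under the spike-in scaling. *En2* was 1.38-fold higher (0.47 ± 0.20), but had a ratio of −0.08 under the spike-in scaling. *Egr2* was 1.33-fold lower (−0.41 ± 0.20) and *Phox2a* 1.31-fold lower (−0.39 ± 0.20), and both were past 1.5-fold without scaling and under the spike-in scaling. *Gbx2* (0.14 ± 0.20) and *Gbx1* (0.02 ± 0.21) differed by less than the error, and their sign changed with the scaling. Counting each gene itself, 3.26% of 19402 genes well above background on both arrays had a ratio as high as *Barhl1*, 6.63% as high as *En2*, 8.10% as low as *Egr2* and 8.97% as low as *Phox2a*.

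**Figure D2:**
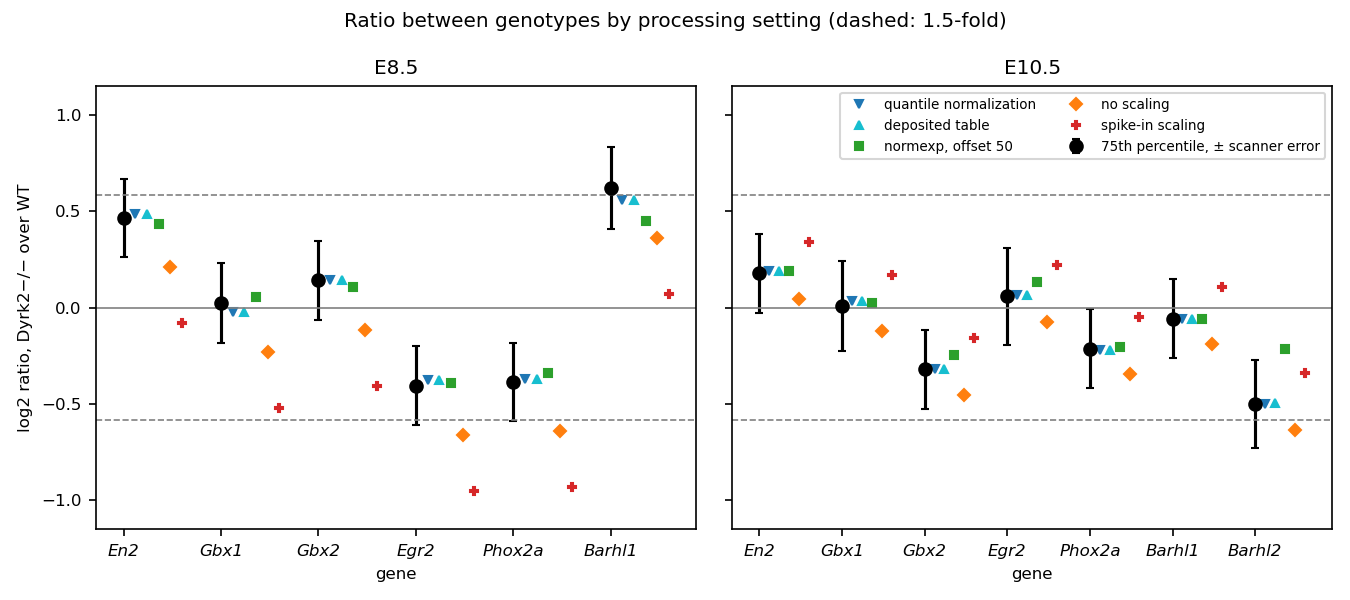
Log2 ratio of the array labelled *Dyrk2*-/- over the WT array at E8.5 (left) and E10.5 (right) for the genes well above background on both arrays. Black points are the 75th percentile scaling with the SD from the scanner software, colored points are other settings, and dashed lines mark 1.5-fold. At E8.5 *Barhl1* lies above the line at 0.62 with the 75th percentile scaling and at 0.07 under the spike-in scaling, at which *Egr2* and *Phox2a* lie at −0.95 and −0.93.

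The choice of scaling moved all genes at E8.5. The median log2 ratio of all genes tested was −0.02 with the 75th percentile, −0.28 without scaling and −0.57 under the spike-in scaling, and at E10.5 it was −0.00, −0.13 and 0.16. Between the stages it was −0.08, 0.10 and −0.15 in WT and −0.05, 0.25 and 0.59 on the arrays labelled *Dyrk2*-/-. The ratios given here are therefore relative to all genes of an array.

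At E10.5, 0 of 7 measured genes were 1.5-fold or more different between genotypes, where 5.49% of 21351 genes were. The farthest from 0 was *Barhl2*, 1.42-fold lower on the array labelled *Dyrk2*-/- (log2 ratio −0.50 ± 0.23), and without scaling it passed the threshold. *Gbx2* was 1.25-fold lower (−0.32 ± 0.21) and *Phox2a* 1.16-fold lower (−0.21 ± 0.20), and *En2* was 1.13-fold higher (0.18 ± 0.20). *Barhl1* (−0.06 ± 0.21), *Egr2* (0.06 ± 0.25) and *Gbx1* (0.01 ± 0.23) differed by less than the error, and their sign changed with the scaling. The other *Barhl1* probe was 1.39-fold lower (−0.48 ± 0.21). Over both stages, limma with embryonic day as a block called 0 of the 7 genes for the genotype, where it called 0.0186% of 32289 probes. An unadjusted p under 0.05 was found for 1592 probes (4.93%, where chance alone gives 5%), with 1 of these genes among them, *En2* (log2 difference 0.32, SE 0.13, adjusted p = 0.986), higher at both stages. *Phox2a* had a limma difference of −0.30 (SE 0.13, adjusted p = 0.9999), lower at both stages, and *Egr2* of −0.17 (SE 0.16).

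The counts of the lists between genotypes stand beside 9.26% of all genes at E8.5 and 5.49% at E10.5. A gene measured on 1 of the arrays compared, such as *Cnpy1* at E8.5, entered a count only through the array where it was high. Of the isthmic organizer genes, 1 of 18 was 1.5-fold or more different at E8.5 (*Cnpy1*, at least 2.52-fold higher on the array labelled *Dyrk2*-/-) and 0 of 19 at E10.5, with medians of 0.05 and −0.00. *Fgf8* had ratios of −0.13 and 0.02, *Wnt1* of 0.25 and 0.15, *Pax2* of 0.48 and −0.22, *Pax5* of −0.46 and −0.09 and *Pax8* of 0.47 and −0.11, with −0.28 at E8.5 at another *Pax8* probe. Of the rhombomere genes, 4 of 24 were higher and 1 lower at E8.5, and 0 of 23 were higher and 3 lower at E10.5, with medians of 0.07 and −0.15. *Egr1*, a zinc finger gene of the same family as *Egr2*, was 2.21-fold higher at E8.5, *Cyp26b1* 1.79-fold, *Hoxa4* 1.75-fold, and *Hoxd4* had a log2 ratio of 0.59. The Eph receptor *Ephb2* was lower at both stages at its brightest probe (−0.68 and −1.50), while another probe had 0.24 and −0.19, and at E10.5 *Fgf3* was 1.53-fold lower. *Hoxb1* had ratios of −0.06 and 0.08 and *Epha4* of −0.15 and −0.12.

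Of the motor neuron genes, 1 of 17 was higher at E8.5 (*Olig2*, 1.75-fold) and 1 lower (*Nkx2-2*, at least 1.97-fold), and 0 of 17 were higher and 2 lower at E10.5 (*Nkx2-2*, 1.98-fold at its brightest probe and 1.05-fold at another, and *Slc18a3*, 1.56-fold), with medians of −0.03 and −0.27. *Isl1* had ratios of −0.43 and −0.30 at its brightest probe but 0.17 and −0.51 at another, and *Tbx20* of −0.58 and 0.02 at its brightest. Another *Tbx20* probe had −0.74 and −0.06, the former past the threshold, while further probes had −0.49 and −0.34 at E8.5, under it. Of the noradrenergic and autonomic genes, 1 of 9 was higher at E8.5, and *Dbh* was 1.98-fold and *Th* 1.61-fold lower at E10.5 (2 of 10), with medians of 0.19 and −0.19. Of the rhombic lip and dorsal hindbrain genes, 1 of 11 was higher (*Neurog2*, 1.81-fold) and 1 lower (*Pou4f1*, 2.64-fold at its brightest probe, while another probe had 0.24) at E8.5, and 1 of 16 was lower at E10.5 (*Gdf7*, 1.94-fold), with medians of 0.14 and −0.20. At E10.5 the same *Pou4f1* probes had 0.28 (brightest) and −0.75, the latter past the threshold. Among the genes of other *En1* and *Egr2* sites, *Sox10* was 1.64-fold higher at E8.5 (1 of 10), and 2 of 10 were lower at E10.5, among them *Fgf4* (1.80-fold), with medians of −0.07 and −0.19. Limma called 0 genes of these 6 lists for the genotype.

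Of the whole neural tube genes, 2 of 14 were 1.5-fold or more lower on the array labelled *Dyrk2*-/- at E8.5 (*Nefm*, 2.21-fold at its brightest probe and 1.48-fold at another, and *Fabp7*, 1.62-fold) and 5 of 15 at E10.5 (*Nefl*, 1.83-fold, *Stmn3*, 1.82-fold, *Ina*, 1.60-fold, *Stmn2* and *Dcx*), and 0 were higher. Their medians were −0.24 and −0.56, against −0.02 and −0.00 over all genes. Erythroid genes were higher, 11 of 12 at E8.5 with a median of 4.17 and 8 of 12 at E10.5 with a median of 0.97. *Hbb-y* was 63.8-fold, *Slc4a1* 34.1-fold and *Hba-x* 33.7-fold higher at E8.5, and *Klf1* 2.50-fold and *Gata1* 2.35-fold higher at E10.5. Limma called 1 erythroid gene, the erythropoietin receptor *Epor* (2.65-fold higher at E8.5 and 2.15-fold at E10.5), and 0 whole neural tube genes for the genotype. The part of these differences in the ratios of the hindbrain factors was not tested.

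For each gene measured on all 4 arrays, the most similar pattern among 18806 genes was sought by the root mean square difference of the 4 log2 values after subtracting the mean of each gene. The nearest to *Gbx2* were *Fgf17*, which is among the isthmic organizer genes, at 0.042 and *Cldn9* at 0.047, and the nearest to *Gbx1* were *Ftcd* at 0.027 and *Clic5* at 0.035. *Egr2* had *Car4* at 0.19 and *Hoxaas3* at 0.19, and thus no gene as close as the others had. *Barhl1* had *Elk3* at 0.0063 and *Rmrp* at 0.031, and *Phox2a* had *Ehhadh* at 0.0064 and *Tceal3* at 0.0098. For *En2* the nearest 2 were transcripts named in the array annotation by a database entry only, at 0.019 and 0.020. With 4 values a gene, close patterns are found for many genes.

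The probes behind the stage differences are shown because the results rest on 1 probe for each gene but *Barhl1*. Positions are those of the array annotation (mm9), and of each 60-base probe the first 30 bases are given, 5′ to 3′, except for *Gbx1*, whose probe lies in the homeobox, has 1 reading frame without a stop codon and is given whole. The homeobox is the stretch in which Gbx1 and Gbx2 are most alike, and binding of *Gbx2* transcript to the *Gbx1* probe was not tested. The *Egr2* probe lies at chr10:67004758-67004817 (plus strand, 41.7% G and C), the *Gbx2* probe at chr1:91825013-91825072 (minus strand, 45.0%) and the *Gbx1* probe at chr5:24010593-24010652 (minus strand, 56.7%). The brightest *Barhl1* probe is annotated at chr2:28763200-28763239 (minus strand), which covers 40 of its 60 bases, and the other at chr2:28763253-28763312. The annotation starts them at bases 2080 and 3561 of the transcript, which does not match their order and distance on the chromosome, and the call of *Barhl1* at E8.5 rests on the brightest. The other probes lie at chr5:106881644-106881703 for *Barhl2* (minus strand), chr1:122504067-122504126 for *En1*, chr5:28498468-28498528 for *En2* and chr7:108971127-108971186 for *Phox2a* (plus strand).
Egr2 probe: gtagccaaatttcaggtgagaatgtgcttc
Gbx2 probe: gagagtatattcattagacgggcttaaagg
Gbx1 probe: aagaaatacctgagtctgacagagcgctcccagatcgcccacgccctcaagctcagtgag
Barhl1 brightest probe: tatacggagcttccctccccatttccttta
Barhl1 other probe: ctacacggattgacttaaacccaggggata

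Promoters of *Egr2* and *Gbx2*, which fell together between the stages, are shown with motifs found by letters alone on both strands. In the RefSeq promoter table (GRCm38.p6), 6 of the 8 genes have an entry, *Gbx1* and *En2* excepted, with 11 transcript starts. The 250 bases before each start were searched for the CArG box, which serum response factor binds, the E-box CACGTG, the POU octamer ATTTGCAT and the Hox and Pbx motif TGATNNAT, chosen after the sequences had been read. A CArG box was in 1.47% of 32851 promoters and in 4 of the 5 of *Egr2*, and in no other promoter of these genes. The octamer was in 1.6% of all promoters and in 3 of *Egr2*, CACGTG in 6.02% and in the promoters of *En1* and *Gbx2* and 1 of *Egr2*, and TGATNNAT in 7.68% and in 1 of *Egr2*. No 2 matches overlapped. The gene *Egr2* spans chr10:67534469-67542188 and all 5 of its windows lie inside it, behind the first of its starts, so only 30 bases around a match are printed, with the motif in capitals. The stretch with the octamer is chr10:67537731-67537760 (plus strand), and its match is the same in 3 overlapping windows. This also holds for the CArG box in chr10:67537787-67537816, while the other CArG box is in chr10:67537484-67537513. In the window chr10:67537619-67537868 the octamer begins 127 bases and the CArG box 72 bases before the start. The *Gbx2* promoter at chr1:89931177-89931426 (minus strand) lies outside the gene and is printed whole, with CACGTG in capitals, beginning 74 bases before the start. A match says only that these letters are in the window.
Egr2 octamer: gccaagcccgtATGCAAATtggccatgtga
Egr2 CArG box: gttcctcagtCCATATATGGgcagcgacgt
Egr2 other CArG box: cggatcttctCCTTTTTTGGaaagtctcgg
Gbx2 promoter: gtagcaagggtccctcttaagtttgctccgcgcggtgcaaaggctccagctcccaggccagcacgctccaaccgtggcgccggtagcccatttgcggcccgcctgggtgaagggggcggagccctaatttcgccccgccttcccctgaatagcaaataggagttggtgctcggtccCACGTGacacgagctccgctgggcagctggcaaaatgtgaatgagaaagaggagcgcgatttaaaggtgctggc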

How the data were processed

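The authors deposited scanner output with processed intensity that is linear and background-subtracted, with no scaling from array to array. The file headers name Feature Extraction 10.7.1.1 (mm9), the submitters' notes 9.5.1.1. The authors also deposited a table of intensity whose columns share 1 distribution. Spots of a probe were averaged as log2 of the scanner's processed signal, leaving out those with outlier flags, and the 75th percentile was subtracted. There were 56605 probes, 30227 to 31943 of them well above background on an array. The brightest probe stood for a gene. A dim value took part in a fold at no less than the lowest level above background on its array. Limma 3.58.1 in R 4.3.3 (lmFit, eBayes with trend) was fitted to probes that passed the background test on 2 arrays or more. Python 3.11.15, numpy 2.4.6, pandas 2.3.3 and matplotlib 3.10.9 were used. The fold rule and limma were tested on simulated data. Alternatives were quantile normalization, spike-in scaling, no scaling, normexp with an offset of 50, the deposited table, other filters, the mean over probes, 2-fold, a Z-score over 2 or under −2 beside 1.5-fold and limma without trend. Named genes are the 8 factors, *Dyrk2*, a fixed set of list genes, for each list and comparison up to 3 called genes with the largest ratio among those above background on both arrays, and the 2 nearest patterns. Not every gene that this rule takes is given. *Stmn2*, *Dcx*, *Hoxd4*, *Epor*, the brightest markers and the genes of the sex chromosomes fall outside this rule and were named after their values were seen, as were some values of *Cnpy1* and *Nkx2-2*. The factors and lists were chosen with earlier results of these data known.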

Additional observations from a re-analysis of the deposited data

Results flagged for a closer look

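Of the 6 factors well above background on all 4 arrays, 3 had a log2 ratio of the array labelled *Dyrk2*-/- over WT with opposite signs at E8.5 and E10.5. No share over all genes stands beside this count. With 1 array per group the difference between the stages was not tested. For *Barhl1* the ratio at E8.5 minus that at E10.5 was 0.68 (0.62 ± 0.21 and −0.06 ± 0.21, with an error of the difference of 0.30 from the spots alone). For *Egr2* it was −0.46 (−0.41 ± 0.20 and 0.06 ± 0.25, error 0.32), and for *Gbx2* 0.46 (0.14 ± 0.20 and −0.32 ± 0.21, error 0.29). The opposite signs were lost under the spike-in scaling for *Barhl1* (0.07 and 0.10) and *Gbx2* (−0.41 and −0.16), and without scaling for *Gbx2* (−0.12 and −0.45) and *Egr2* (−0.66 and −0.07). In each of the 3 genes the ratio at 1 of the stages was smaller than its error.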

How the results depend on the processing

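The falls of *Egr2*, *Gbx1* and *Gbx2* between stages kept their direction and stayed past 1.5-fold under the scalings, background correction and filters tried, though with the Z-score *Egr2* alone did in both genotypes, with log2 differences from −5.62 to −4.43 for *Egr2* in WT and from −5.11 to −3.91 on the arrays labelled *Dyrk2*-/-. Genes past 1.5-fold between genotypes at E8.5 numbered 1 as reported (*Barhl1*), 0 with quantile normalization, the deposited table, normexp, 2-fold or the Z-score, and 2 under the spike-in scaling or without scaling (*Egr2* and *Phox2a*, lower) and without a filter (*En1* and *Barhl1*). At E10.5 they numbered 0 as reported, and 1 without scaling (*Barhl2*) or without a filter (*En1*). Between stages they numbered 5 in WT and 4 on the arrays labelled *Dyrk2*-/- as reported, 4 and 3 with a filter on both arrays, and 2 and 2 with the Z-score. Under the spike-in scaling they numbered 7 on the arrays labelled *Dyrk2*-/-, 4 higher and 3 lower. With normexp the call of *Barhl2* on the arrays labelled *Dyrk2*-/- was lost. Limma's 5 genes for the embryonic day became 2 under the spike-in scaling, 1 higher and 1 lower, and 4 with a filter on all 4 arrays, which *Barhl2* did not pass. They became 6 with *En2* under quantile normalization, without scaling and in the deposited table, and 0 were called for the genotype under any setting. The cause was not tested. Among the log2 ratios of single factors under the other settings, 125 moved by less than the scanner error and 37 by more.

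Over all genes, the 1931 called at E8.5 (985 higher and 946 lower) became 9835 under the spike-in scaling (165 and 9670), 3177 without scaling (384 and 2793), 591 with normexp, 6856 without a filter, 488 at 2-fold and 907 with the Z-score. The 1173 at E10.5 (512 and 661) became 302 with normexp, 5205 without a filter and 286 at 2-fold, and were split 1003 and 338 under the spike-in scaling and 345 and 1180 without scaling. The 7231 between stages in WT (3771 and 3460) became 4621 with normexp, 12134 without a filter, 3440 at 2-fold and 1179 with the Z-score, and were split 5043 and 2215 without scaling. The 6031 on the arrays labelled *Dyrk2*-/- (3191 and 2840) became 11324 under the spike-in scaling (10563 and 761), 3397, 10878, 2758 and 1135 in the same order, and were split 5620 and 1353 without scaling. Limma's 6 probes for the genotype (4 and 2) became 29 with quantile normalization, 37 under the spike-in scaling, 729 without scaling (114 and 615), 25 with normexp (23 and 2), 40 in the deposited table, 10 with a filter on all 4 arrays, 564 without a filter and 0 without the trend. Its 11397 for the embryonic day (5062 and 6335) became 2633 under the spike-in scaling (2095 and 538) and 6437 without the trend, and were split 8758 and 3010 without scaling. Limma paired the arrays by stage or genotype, and with 1 array in each group none could be left out. *En1*, and *Barhl2* at E8.5, were limited by signal over background.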
